A study of Mus musculus with 10 samples.

Results

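The 10 gene segments described here belong to the IGKV4 family of mouse kappa light-chain V genes: IGKV4-50, IGKV4-55, IGKV4-57, IGKV4-57-1, IGKV4-59, IGKV4-61, IGKV4-68, IGKV4-72, IGKV4-74 and IGKV4-86. They were chosen by name, and each of their clonotypes had to be listed with that V gene alone. The libraries held clonotypes of 101 Igkv genes, among them 9 of these 10 segments, since IGKV4-59 was never listed alone. Together they held 4404 of 44103 clonotypes and 173465 of 1585211 reads. A clonotype here is an entry of the deposited tables, which join a V gene, a J gene and the amino acid sequence of the CDR3, the loop that spans the V-J junction.

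Rearranged Igk DNA was amplified from sorted peritoneal cavity cells of C57BL/6 mice aged 6 to 8 weeks. The 3 groups were WT B-1a cells, Igll1-/- B-1a cells and WT B-2 cells, each separated by cell sorting. Each group had 2 libraries, and the B-1a groups differ in genotype, since the knockout mice lack Igll1. The template was genomic DNA and products between 100 and 280 bp were kept, with a degenerate V primer plus primers for some V genes favoured by B-1a cells, so the share of a V gene also depends on its primer. The labels do not say whether the libraries of a group came from separate mice, and p-values therefore measure only the spread between these libraries.

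A kappa chain is made when a V segment is joined to 1 of the J segments downstream of it, and the joined exon carries germline V and J residues around the junction. A cell can replace a first join by a later one that uses a more upstream V and a more downstream J, and IGKJ5 is the last J of the locus. IGKJ3 is a J segment that does not give a functional kappa chain in the mouse. The surrogate light chain (SLC), of which Igll1 encodes the lambda5 part, takes the place of the kappa chain in the pre-BCR, before a kappa gene is joined. In the IGKV4 family, IGKV4-91 is known for pairing with VH12 in B-1a cells that bind phosphatidylcholine, whereas the 10 segments here are not its usual partner. All 10 matched a gene on chromosome 6 of the RefSeq table (assembly GRCm38.p6). IGKV4-50 is the member nearest to the J segments, with 52 Igkv genes between, and IGKV4-86 is the farthest, with 100 between. IGKV4-57 and IGKV4-57-1 are separated by a single gene, Igkv13-57-1.

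Members differed in the start of the CDR3. The stretches below, found in the deposited CDR3s rather than in germline sequence, opened the CDR3 of most productive reads of each member, and they are shown because most of them tell the members apart in the clonotypes described further on.
IGKV4-50: QQFTSSP
IGKV4-55: QQWSSYP
IGKV4-57: QQRSSYP
IGKV4-57-1: QQYSGYP
IGKV4-61: QQYHSYP
IGKV4-72: QQWSSNP
IGKV4-74: HQYHRSP
IGKV4-86: QQWNYP
The stretch opened the CDR3 of 92.0% to 95.2% of the productive reads of IGKV4-55 in a library, of 94.0% to 96.6% for IGKV4-57 and of 93.3% to 98.0% for IGKV4-57-1. It covered 95.4% to 98.2% for IGKV4-86, 92.9% to 97.2% for IGKV4-61, 92.5% to 95.6% for IGKV4-72, 87.6% to 100% for IGKV4-50 and 83.9% to 98.4% for IGKV4-74. Counted by clonotype instead of by read, the stretch opened far fewer CDR3s, 30.3% to 36.6% of productive clonotypes of IGKV4-55, 28.9% to 38.1% of IGKV4-57, 27.4% to 55.6% of IGKV4-57-1 and 29.2% to 41.7% of IGKV4-72. For IGKV4-61 this was 33.3% to 45.8%, for IGKV4-74 32.7% to 63.6%, for IGKV4-86 at most 54.4% and for IGKV4-50 58.3% to 100%. In IGKV4-55, IGKV4-57, IGKV4-61 and IGKV4-72 the more numerous clonotypes with another start held few reads. Some of them opened with the stretch of another member. With IGKJ5, QQRSSYPLT and QQWSSNPLT were also listed under IGKV4-55, and QQRSSYPLT and QQWSSYPLT under IGKV4-72. The stretch of IGKV4-72, QQWSSNP, was shared with entries listed as IGKV4-59 or IGKV4-68, where it opened 91.9% to 95.0% of productive reads, so the CDR3 alone does not separate these genes.

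The libraries held 5701 to 8652 clonotypes from 214000 to 288396 reads, and 57.7% to 59.2% of clonotypes rested on 1 read. The smallest share that 3 clonotypes can show was 0.0347% to 0.0526%, and such limits and the Wilson 95% intervals given below cover counting error only, since no molecular identifier marks a template. Clonotypes that differed at 1 CDR3 residue from one with at least 10 times the reads, with the same V, J and length, made up 59.2% to 61.9% of a library and 63.0% to 68.6% of member clonotypes. Neither the sort markers nor the loss of Igll1 can be read from Igk DNA. As a check of the B-1a label, IGKV4-91 took 6.54% and 6.03% of clonotypes in WT B-1a, 2.77% and 3.17% in Igll1-/- B-1a and 1.44% and 1.30% in WT B-2 libraries. IGKV14-126, the other segment known from phosphatidylcholine-binding cells, took 4.89% and 5.29% in WT B-1a, 0.684% and 0.735% in Igll1-/- B-1a and 1.65% and 1.47% in WT B-2 libraries, so in the knockout it lay below B-2.

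Summed over the 10 segments, the members took a like share of the repertoire in each group. They made up 11.1% and 9.42% of clonotypes in WT B-1a, 11.0% and 8.59% in Igll1-/- B-1a, and 9.71% and 10.3% in WT B-2 libraries. The group means were 10.2% ± 1.16, 9.81% ± 1.73 and 9.98% ± 0.384 (SD, n = 2), and the libraries of all groups overlapped. By reads the shares were 11.3% and 8.78% in WT B-1a, 14.2% and 7.98% in Igll1-/- B-1a, and 12.2% and 11.6% in WT B-2 libraries. The Igll1-/- libraries thus held both the highest and the lowest member share of reads.

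Within this stable sum, IGKV4-57 and IGKV4-55 were abundant in each group, and IGKV4-50 was the rarest of the 8 members that could be tested. Ranked by mean share among the 100, 100 and 101 Igkv genes found in WT B-1a, Igll1-/- B-1a and WT B-2 cells, IGKV4-57 stood at 10, 13 and 10. IGKV4-55 ranked 17, 14 and 13 in the same order. IGKV4-57-1 moved most in rank, from 11 in WT B-1a to 21 in Igll1-/- B-1a and 46 in WT B-2 cells. IGKV4-86 ranked 29, 17 and 39, IGKV4-72 ranked 22, 20 and 12, and IGKV4-61 ranked 35, 33 and 40. IGKV4-74 ranked 48, 44 and 38, and IGKV4-50 ranked 54, 73 and 67. In WT B-1a cells the neighbours IGKV4-57 (2.31% ± 0.206, SD, n = 2) and IGKV4-57-1 (2.07% ± 0.392) overlapped between libraries, as did IGKV4-55 (1.51% ± 0.248) and IGKV4-72 (1.31% ± 0.144).

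**Figure D1:**
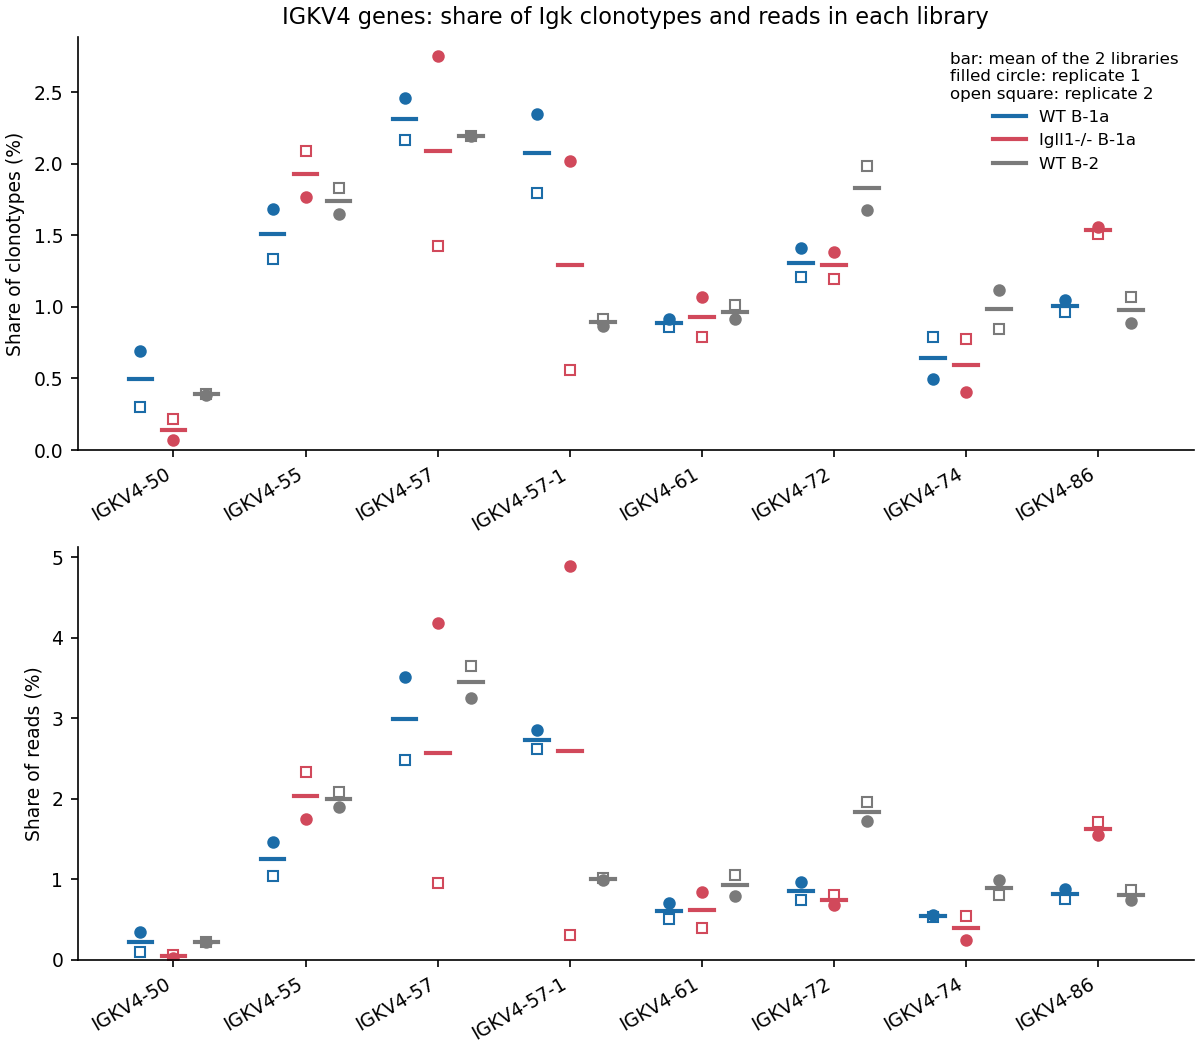
Percent of clonotypes (upper panel) and of reads (lower panel) for each of the 8 tested members (x axis) in the 6 Igk libraries, coloured by group, with a filled circle for replicate 1, an open square for replicate 2 and a bar for the group mean. In clonotypes, IGKV4-57-1 sits at 2.35% and 1.80% in WT B-1a but at 2.02% and 0.562% in Igll1-/- B-1a, and both IGKV4-86 points of the knockout (1.56% and 1.51%) lie above all WT points.

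None of the 8 members passed the test between groups. The share of clonotypes per V gene was compared with edgeR's quasi-likelihood test over the 84 Igkv genes that reached 10 clonotypes in 2 or more libraries, on the total clonotypes of each library. Between Igll1-/- and WT B-1a cells, 15 of 84 genes (17.9%) passed an adjusted p of 0.05 and 0 of 8 members did. Between Igll1-/- B-1a and WT B-2 cells, 19 genes (22.6%) passed and 0 members did, and between WT B-1a and WT B-2 cells, 3 genes (3.57%) passed and 0 members did. At an unadjusted edgeR p under 0.05, 25 of 84 genes (29.8%), 27 (32.1%) and 18 (21.4%) passed in these comparisons, with 1 member in each: IGKV4-50 in both knockout comparisons and IGKV4-57-1 in the WT comparison. DESeq2 called 14 (16.7%), 9 (10.7%) and 4 (4.76%) genes and 0, 1 and 0 members, the member being IGKV4-86. The 3 comparisons share libraries and are not independent of each other.

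The median log2 fold change of the 8 members was −0.07 for Igll1-/- over WT B-1a cells, beside −0.17 for all 84 genes. It was −0.06 beside −0.49 for Igll1-/- B-1a over WT B-2 cells, and −0.04 beside −0.22 for WT B-1a over WT B-2 cells. Of the 8 members, 6, 5 and 6 lay above the median of all genes in these comparisons. With TMM factors the medians of all genes were 0.08, −0.03 and −0.02, and those of the members 0.19, 0.40 and 0.17. Scaling to total clonotypes called 7 genes higher and 8 lower, 6 and 13, and 3 and 0 in the 3 comparisons. With TMM the split was 10 and 6, 7 and 1, and 3 and 0, and with DESeq2 it was 8 and 6, 8 and 1, and 4 and 0. The sign of a small member difference therefore depended on the scaling, while its place relative to the other genes did not change in these counts.

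**Figure D2:**
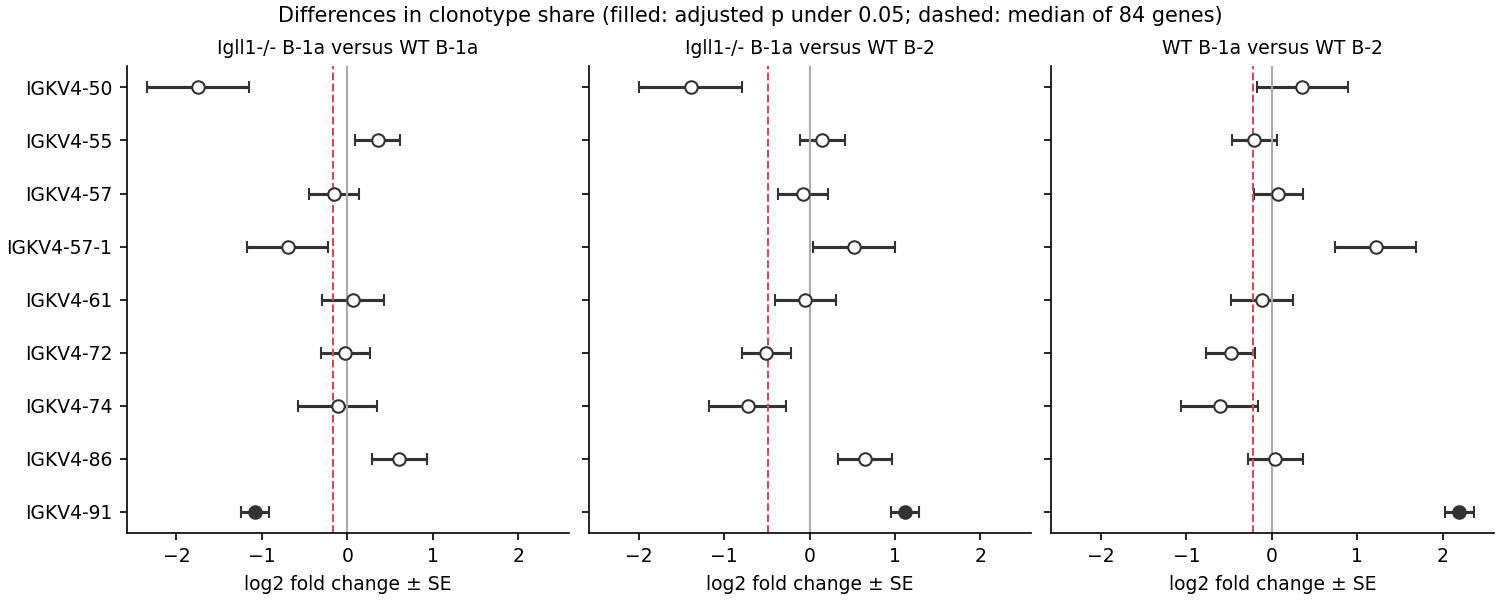
Log2 fold change in clonotypes (x axis) of each tested member (y axis) in the 3 comparisons, with a dashed line for the median of all 84 Igkv genes. Bars are 1 standard error, derived from the fold change and the F statistic of edgeR's test. Filled points have an adjusted p under 0.05 by edgeR, which only IGKV4-91, drawn for reference, reached (−1.08, 1.11 and 2.19). IGKV4-50 is the member farthest below this median in both knockout comparisons (−1.75 and −1.39), and IGKV4-57-1 the farthest above it for WT B-1a over WT B-2 cells (1.22).

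IGKV4-57-1 was the member that separated B-1a from B-2 cells of WT mice most, and it split the Igll1-/- libraries. It made up 2.35% (Wilson 95% interval 2.03% to 2.73%) and 1.80% (1.51% to 2.13%) of clonotypes in the WT B-1a libraries. In WT B-2 libraries it made up 0.867% (0.692% to 1.09%) and 0.917% (0.737% to 1.14%). In Igll1-/- B-1a libraries it made up 2.02% (1.68% to 2.42%) in replicate 1 and 0.562% (0.411% to 0.767%) in replicate 2. Replicate 1 of the knockout thus lay within the WT B-1a range and replicate 2 below both B-2 libraries, a ratio of 3.59 between replicates. By reads the same libraries stood at 4.89% and 0.307%, a ratio of 16.0, against 2.86% and 2.61% in WT B-1a and 0.991% and 1.02% in WT B-2 libraries. The log2 fold change of WT B-1a over WT B-2 cells was 1.22 ± 0.48 (SE), which did not pass (adjusted p = 0.173 by edgeR), and 1.44 relative to the median of all genes.

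This comparison contains no Igll1-/- library, but the spread was estimated over all 6. Without Igll1-/- replicate 1 the WT difference was 1.22, and without Igll1-/- replicate 2 it was 1.22. Over all leave-one-out fits it ran from 1.01 to 1.40. With all 6 libraries it did not pass with TMM factors (1.42, edgeR adjusted p = 0.140) or with DESeq2 (1.51, adjusted p = 0.0625). Nor did it pass with the replicate number as a block (1.17, edgeR adjusted p = 0.0872). The knockout comparisons themselves followed the library left out. With 1 knockout library left, no spread between knockout libraries entered these comparisons, so only their effect sizes are given. Igll1-/- over WT B-1a gave −0.70 ± 0.47 (SE, adjusted p = 0.346 by edgeR) with both knockout libraries, −1.88 without replicate 1 and −0.04 without replicate 2. Igll1-/- B-1a over WT B-2 gave 0.52 ± 0.48 (SE, adjusted p = 0.442 by edgeR) with both, −0.67 without replicate 1 and 1.18 without replicate 2. After near-identical clonotypes were merged, IGKV4-57-1 kept 47 and 28 clonotypes in WT B-1a, 35 and 17 in Igll1-/- B-1a and 22 and 33 in WT B-2 libraries. As shares of the clonotypes kept, WT B-1a libraries stood at 1.67% and 0.986% and WT B-2 libraries at 0.651% and 0.965%. The lower WT B-1a and the higher WT B-2 value were thus almost equal. The log2 fold change between these WT groups was 0.71 ± 0.37 (SE, adjusted p = 0.251 by edgeR).

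A single CDR3 carried much of the IGKV4-57-1 reads. QQYSGYPLT joined to IGKJ5 had 5545 and 3777 reads in WT B-1a, 9294 and 44 in Igll1-/- B-1a, and 1642 and 1767 in WT B-2 libraries. It was 4.34% of all reads of Igll1-/- replicate 1 and 0.0160% of replicate 2, against 2.02% and 1.54% in WT B-1a and 0.569% and 0.613% in WT B-2 libraries. Within the gene it took 70.5% and 58.98% of reads in WT B-1a, 88.8% and 5.23% in Igll1-/- B-1a, and 57.4% and 60.4% in WT B-2 libraries. The rest of the gene spread less, at 0.844% and 1.07% of reads in WT B-1a, 0.550% and 0.291% in Igll1-/- B-1a and 0.422% and 0.402% in WT B-2 libraries. In Igll1-/- replicate 2 the most read IGKV4-57-1 clonotype was instead QQYSGYPFT joined to IGKJ2, with 371 reads, against 0 in replicate 1 and 2 to 12 in the WT libraries. Igll1-/- replicate 2 was also lowest in IGKV4-57, the near neighbour of IGKV4-57-1, at 1.43% of clonotypes and 0.951% of reads. Over all genes the knockout replicates were farther apart than those of other groups, with a median ratio of 1.54 between replicates, against 1.23 in WT B-1a and 1.17 in WT B-2 cells, and the part of this in the IGKV4-57-1 values was not tested.

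The Igll1-/- libraries held more IGKV4-86 than any WT library, but the gene did not pass the test. It made up 1.05% (Wilson 95% interval 0.840% to 1.31%) and 0.962% (0.758% to 1.22%) of clonotypes in WT B-1a, 1.56% (1.27% to 1.92%) and 1.51% (1.25% to 1.83%) in Igll1-/- B-1a, and 0.890% (0.713% to 1.11%) and 1.07% (0.872% to 1.31%) in WT B-2 libraries. The replicates of each group lay close together. By reads the gene held 0.880% and 0.757%, 1.55% and 1.71%, and 0.737% and 0.863% in the same order, and the knockout was again apart. Without its most read clonotype, QQWNYPLIT with IGKJ5, the gene held 0.600% and 0.415%, 0.595% and 0.685%, and 0.537% and 0.609% of reads. In this rest the groups overlapped. The log2 fold change in clonotypes of the gene was 0.61 ± 0.32 (SE, adjusted p = 0.225 by edgeR) over WT B-1a and 0.65 ± 0.32 (SE, adjusted p = 0.160 by edgeR) over WT B-2 cells. Relative to the median of all genes these were 0.78 and 1.14. The difference from B-2 cells passed with TMM factors (1.11, edgeR adjusted p = 0.0487) and with DESeq2 (1.19, adjusted p = 0.0266). With near-identical clonotypes merged it fell to 0.42 ± 0.37 (SE, adjusted p = 0.527 by edgeR). Over WT B-1a cells the merged value was 0.45 ± 0.38 (SE, adjusted p = 0.458 by edgeR). The clonotypes kept were 23 and 29 in WT B-1a, 30 and 31 in Igll1-/- B-1a, and 28 and 36 in WT B-2 libraries. As shares of all clonotypes kept these were 0.815% and 1.02%, 1.35% and 1.17%, and 0.829% and 1.05%, with the knockout above the WT libraries. The 2 WT groups overlapped, with a log2 fold change of 0.04 ± 0.32 (SE, adjusted p = 0.987 by edgeR).

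IGKV4-50 was the member with the lowest relative level in the knockout, on few clonotypes. It had 50 and 21 clonotypes in WT B-1a, 4 and 15 in Igll1-/- B-1a, and 33 and 34 in WT B-2 libraries, so it passed the minimum through the WT groups and 1 knockout library. As shares these were 0.691% (Wilson 95% interval 0.525% to 0.910%) and 0.302% (0.197% to 0.461%), 0.0702% (0.0273% to 0.180%) and 0.216% (0.131% to 0.356%), and 0.381% and 0.395%. Both knockout libraries lay below all WT libraries, and the interval of knockout replicate 2 overlapped that of WT B-1a replicate 2. The log2 fold change of Igll1-/- over WT B-1a cells was −1.75 ± 0.60 (SE, adjusted p = 0.0595 by edgeR). Over WT B-2 cells it was −1.39 ± 0.60 (SE, adjusted p = 0.129 by edgeR). Relative to the median of all genes these were −1.57 and −0.90. The first of these passed with no filter on low counts (edgeR adjusted p = 0.0359), with productive clonotypes only (0.0444) and with the replicate number as a block (0.0499). It shrank to −0.85 with clonotypes of at least 2 reads (edgeR adjusted p = 0.227) and to −0.99 with near-identical clonotypes merged (0.0937). With 1 library left in a group it was −1.03 without WT B-1a replicate 1, −1.20 without Igll1-/- replicate 1 and −2.80 without Igll1-/- replicate 2.

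Among the remaining tested members, IGKV4-72 and IGKV4-74 were lower in both B-1a groups than in B-2 cells without passing the test. IGKV4-72 made up 1.41% and 1.21% of clonotypes in WT B-1a, 1.39% and 1.20% in Igll1-/- B-1a, and 1.68% and 1.99% in WT B-2 libraries. Its log2 fold change over WT B-2 cells was −0.48 ± 0.28 (SE, adjusted p = 0.347 by edgeR) in WT B-1a and −0.51 ± 0.29 (SE, adjusted p = 0.216 by edgeR) in Igll1-/- B-1a cells. IGKV4-74 made up 0.498% and 0.790%, 0.403% and 0.778%, and 1.12% and 0.848% in the same groups, with −0.61 ± 0.45 (SE) and −0.72 ± 0.45 (SE). For both genes all B-1a libraries lay below both B-2 libraries. Relative to the median of all genes, IGKV4-72 stood at −0.26 in WT B-1a and −0.014 in Igll1-/- B-1a over WT B-2 cells, and IGKV4-74 at −0.39 and −0.23, and for IGKV4-72 in Igll1-/- B-1a over WT B-2 cells TMM gave −0.042 and DESeq2 0.035, which turned the direction. Both Igll1-/- libraries held more IGKV4-55 (1.77% and 2.09%) than the WT B-1a libraries (1.69% and 1.34%), with WT B-2 at 1.65% and 1.83% and a log2 fold change over WT B-1a of 0.35 ± 0.27 (SE, adjusted p = 0.374 by edgeR). IGKV4-57 stood at 2.46% and 2.17% in WT B-1a, 2.75% and 1.43% in Igll1-/- B-1a, and 2.20% and 2.19% in WT B-2 libraries, and IGKV4-61 between 0.793% and 1.07% in the 6 libraries.

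Counted over the 8 tested members, groups whose libraries did not overlap were no more frequent than over all genes. Igll1-/- and WT B-1a libraries were apart for 43 of 84 genes (51.2%) and for 3 of 8 members, with IGKV4-55 and IGKV4-86 higher and IGKV4-50 lower in the knockout. Igll1-/- B-1a and WT B-2 libraries were apart for 58 genes (69.0%) and 4 members, with IGKV4-86 higher and IGKV4-50, IGKV4-72 and IGKV4-74 lower in the knockout. WT B-1a and WT B-2 libraries were apart for 47 genes (56.0%) and 4 members, with IGKV4-57-1 higher and IGKV4-61, IGKV4-72 and IGKV4-74 lower in B-1a cells. The 21 other IGKV4 genes, without IGKV4-91, held 10.8% to 13.7% of clonotypes, and 16 of them could be tested. Of these, 1 was higher in Igll1-/- than in WT B-1a cells (IGKV4-53), and 1 was higher (IGKV4-53) and 4 lower (IGKV4-52, IGKV4-69, IGKV4-73 and IGKV4-81) than in WT B-2 cells. Their median log2 fold changes were −0.19, −0.99 and −0.36 in the order of comparisons used above.

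IGKV4-59 and IGKV4-68 were almost never listed alone. IGKV4-59 had 0 clonotypes of its own in all 6 libraries, which allows a share of up to 0.0347% to 0.0526% for entries listed with that gene alone. Entries that name both genes numbered 235 and 199 in WT B-1a, 187 and 202 in Igll1-/- B-1a, and 257 and 243 in WT B-2 libraries, or 2.82% to 3.28% of clonotypes and 2.15% to 4.13% of reads. In each library the pair held more clonotypes than any tested member, but entries with more than 1 V gene were counted to no gene and not tested. IGKV4-68 alone had 2 clonotypes, both large. QQWSSNPPT with IGKJ5 had 2378 reads in Igll1-/- replicate 2, where the pair listed 0 for the same CDR3 and J, while in the other 5 libraries the pair held 1413 to 2262 reads of it. QQWSSNPLT with IGKJ5 had 4483 reads in WT B-2 replicate 1, where the pair again listed 0, while the other 5 libraries held 2403 to 4423 under the pair. The same V-J-CDR3 was thus listed under the pair or under IGKV4-68 in different libraries.

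Counted over all entries, member clonotypes used IGKJ5 more often than Igkv clonotypes at large. Near-identical clonotypes, as defined above, made up 63.0% to 68.6% of member clonotypes and 59.2% to 61.9% of a library. IGKJ5 shares after merging were not computed, so the part of such clonotypes in the difference was not tested. IGKJ5 was found in 64.8% and 64.3% of member clonotypes in WT B-1a, 70.4% and 66.6% in Igll1-/- B-1a, and 56.1% and 53.3% in WT B-2 libraries. Over all clonotypes the share was 51.5% and 51.6%, 51.7% and 47.8%, and 47.3% and 46.1% in the same order. IGKV4-91, outside the list, had 59.6% and 63.6%, 43.0% and 67.7%, and 64.0% and 56.3%, so the high share was not particular to the members. Members lay above the whole in all 6 libraries, and both B-1a groups (64.5% ± 0.298 and 68.5% ± 2.70, SD, n = 2) lay above B-2 cells (54.7% ± 1.93). IGKJ1 took 12.2% to 20.1% of member clonotypes, IGKJ2 13.7% to 24.8%, IGKJ4 1.07% to 1.85% and the non-functional IGKJ3 0.357% to 0.954%.

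The shares by gene also count all entries, near-identical ones included. The IGKJ5 share of IGKV4-86 was 71.1% and 79.1% in WT B-1a, 82.0% and 78.1% in Igll1-/- B-1a, and 57.1% and 63.0% in WT B-2 libraries, so B-1a and B-2 libraries were apart. IGKV4-57 had 58.99% and 60.3%, 71.3% and 69.7%, and 55.8% and 53.4%, with the 3 groups apart from each other. IGKV4-55 had 57.4% and 53.8% in WT B-1a, 75.2% and 84.1% in Igll1-/- B-1a, and 61.5% and 53.2% in WT B-2 libraries, and the knockout alone was high. IGKV4-74 ran the other way in the knockout by clonotypes, with 72.2% and 58.2%, 39.1% and 38.9%, and 46.4% and 39.7%. The knockout libraries held 23 and 54 IGKV4-74 clonotypes, and 11 and 10 after near-identical ones were merged. By reads its IGKJ5 share was 81.8% and 83.9%, 76.0% and 39.5%, and 52.0% and 48.1%, so the knockout was split. The IGKJ5 share of IGKV4-57-1 again split the knockout, at 81.7% (Wilson 95% interval 73.7% to 87.7%) in replicate 1 and 33.3% (20.6% to 49.0%) in replicate 2. QQYSGYPLT with IGKJ5 had 9294 and 44 reads in these libraries. WT B-1a libraries lay above WT B-2 libraries for 5 of 8 members and below for 0, beside 34 above and 5 below of 83 genes (47.0% apart). Igll1-/- B-1a lay above WT B-2 for 4 members and below for 1 (39 of 83 genes apart, 47.0%), and above WT B-1a for 2 and below for 2 (37 of 83 apart, 44.6%).

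**Figure D3:**
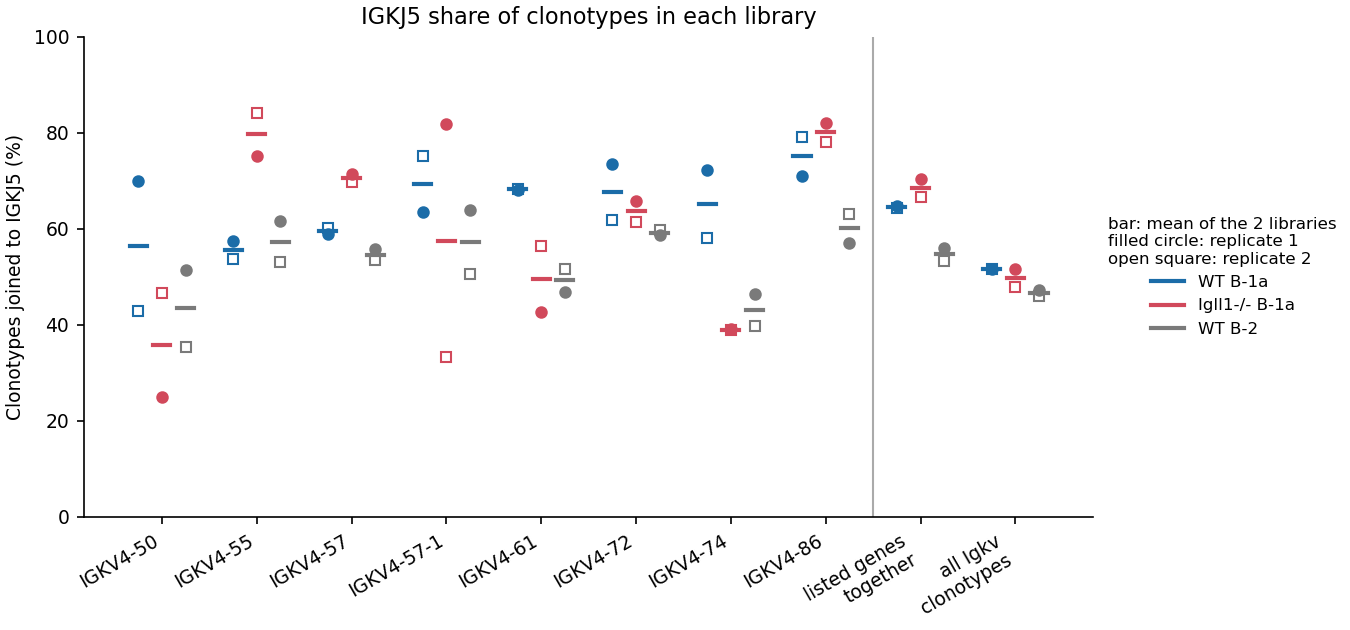
Percent of clonotypes joined to IGKJ5 (y axis) for the tested members, for the members together and for all Igkv clonotypes (x axis) in the 6 libraries, with a point per library, coloured by group, and a bar for the group mean. IGKV4-55 in the Igll1-/- libraries (75.2% and 84.1%) lies above both WT groups, and IGKV4-57-1 spans 33.3% to 81.7% within the knockout.

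IGKV4-86 joined to IGKJ5 was the only member join that passed in a comparison. Of 202 V-J combinations tested, 22 held a member. By edgeR, 21 combinations (10.4%) passed between Igll1-/- and WT B-1a cells and 0 members did. Between Igll1-/- B-1a and WT B-2 cells 25 (12.4%) passed with 1 member, and between WT B-1a and WT B-2 cells 6 (2.97%) passed with 0 members. At an unadjusted edgeR p under 0.05, 51 (25.2%), 69 (34.2%) and 39 (19.3%) combinations passed in these comparisons, with 4, 2 and 1 members. IGKV4-86 with IGKJ5 had 54 and 53 clonotypes in WT B-1a, 73 and 82 in Igll1-/- B-1a, and 44 and 58 in WT B-2 libraries, or 0.746% and 0.761%, 1.28% and 1.18%, and 0.509% and 0.673% of clonotypes. It rose in Igll1-/- B-1a over WT B-2 cells, with a log2 fold change of 1.06 ± 0.30 (SE, adjusted p = 0.0424 by edgeR), and stood at 0.71 ± 0.29 over WT B-1a cells (SE, adjusted p = 0.168 by edgeR). This call did not hold with the replicate number as a block (edgeR adjusted p = 0.0846). With 1 library left in a group it did not hold without WT B-1a replicate 1 (1.06) or 2 (1.06). Nor did it without WT B-2 replicate 1 (0.87) or 2 (1.27). The next member join was IGKV4-55 with IGKJ5, with 70 and 50 clonotypes in WT B-1a and 76 and 122 in Igll1-/- B-1a libraries (log2 fold change 0.88 ± 0.29, SE, adjusted p = 0.0941 by edgeR). The median log2 fold change of the member joins was −0.28, −0.45 and −0.16 in the 3 comparisons, beside −0.16, −0.53 and −0.36 over all combinations.

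Most member rearrangements were productive, that is, in frame and without a stop codon. Productive entries made up 89.5% to 92.1% of member clonotypes in a library, against 86.4% to 88.6% over all Igkv clonotypes. By tested gene and library the share lay between 82.6%, for IGKV4-57-1 in Igll1-/- replicate 1, and 100%, for IGKV4-50 in 3 libraries on at most 21 clonotypes and for IGKV4-74 in WT B-1a replicate 2 on 55. IGKV4-57-1 had 20 and 17 unproductive clonotypes in WT B-1a, 20 and 3 in Igll1-/- B-1a, and 8 and 9 in WT B-2 libraries. The ratio of productive to unproductive clonotypes was compared by edgeR for 84 genes, and 0, 0 and 1 (1.19%) passed in the 3 comparisons. For the 8 members 0 passed in each comparison, and 0 had an unadjusted p under 0.05, beside 8 (9.52%), 5 (5.95%) and 3 (3.57%) of all genes. CDR3s of 9 residues made up 67.0% to 77.4% of productive member clonotypes, and the median identity of member clonotypes to the germline V gene was 92.38% in every library.

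Many of the most read clonotypes consisted of the stretch printed above and the residues LT, with IGKJ5. QQWNYPLIT, the leading IGKV4-86 clonotype with IGKJ5, had 770 and 839 reads in WT B-1a, 2043 and 2820 in Igll1-/- B-1a, and 577 and 733 in WT B-2 libraries. These were 0.280% and 0.342%, 0.955% and 1.03%, and 0.200% and 0.254% of reads, and both knockout libraries stood above all WT libraries. The log2 fold change was 1.67 ± 0.50 (SE, adjusted p = 0.130 by edgeR) over WT B-1a and 2.13 ± 0.51 (SE, adjusted p = 0.115 by edgeR) over WT B-2 cells. DESeq2 called the latter (2.84, adjusted p = 0.00213).

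The leading clonotypes of the other members differed in which libraries were high. QQWSSYPLT of IGKV4-55 with IGKJ5 had 1484 and 1520 reads in WT B-1a, 2113 and 2414 in Igll1-/- B-1a, and 2461 and 2821 in WT B-2 libraries. As shares of library reads these were 0.539% and 0.620%, 0.987% and 0.880%, and 0.853% and 0.978%, so the knockout and WT B-2 libraries overlapped. QQRSSYPLT of IGKV4-57 with IGKJ5 had 5002 and 2787, 4908 and 954, and 4651 and 5642 reads, low in Igll1-/- replicate 2 as the gene itself was. These were 1.82% and 1.14%, 2.29% and 0.348%, and 1.61% and 1.96% of reads, highest in Igll1-/- replicate 1. QQWSSNPLT of IGKV4-72 with IGKJ5 had 863 and 661, 111 and 969, and 2103 and 2496 reads, highest in both B-2 libraries. QQWSSNPPIT of the same V and J was high in both knockout libraries, at 418 and 433 reads, against 121 and 73 in WT B-1a and 160 and 247 in WT B-2 libraries (log2 fold change over WT B-1a 2.26 ± 0.82, SE, adjusted p = 0.188 by edgeR). QQYHSYPLT of IGKV4-61 with IGKJ5 had 727 and 506, 447 and 589, and 1053 and 1412 reads, or 0.264% and 0.207%, 0.209% and 0.215%, and 0.365% and 0.490% of reads. HQYHRSPLT of IGKV4-74 with IGKJ5 had 1003 and 776, 380 and 322, and 719 and 453 reads, or 0.365% and 0.317%, 0.178% and 0.117%, and 0.249% and 0.157% of reads, so the knockout lay below WT B-1a and overlapped WT B-2 libraries. QQFTSSPLT of IGKV4-50 with IGKJ5 had 158 and 97, 14 and 31, and 71 and 344 reads, again lowest in both knockout libraries.

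Some large member clonotypes were found mainly in 1 or 2 libraries. QQWSSYPPTLT of IGKV4-55 with IGKJ5 had 2704 reads in Igll1-/- replicate 2, which were 42.3% of the IGKV4-55 reads there, and 0 to 18 reads in the other 5 libraries. HQYHRSPPT of IGKV4-74 with IGKJ1 had 595 reads in the same library, 0 in Igll1-/- replicate 1 and 2 to 173 in the WT libraries. QQYHSYPPLT of IGKV4-61 with IGKJ5 had 356 reads in WT B-1a replicate 1, 188 in Igll1-/- replicate 1 and 0 to 7 in the others.

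**Figure D4:**
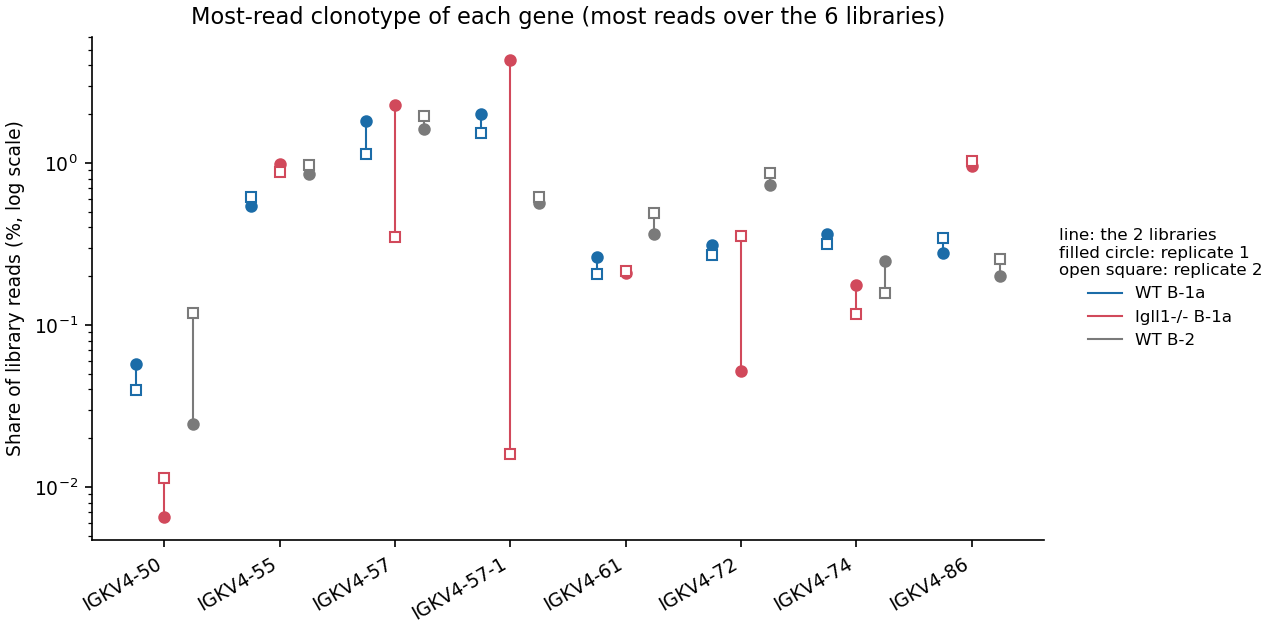
Percent of library reads (y axis, log scale) in the clonotype of each tested member (x axis) with the most reads over the 6 libraries, with a point per library, coloured by group, and a line that joins the libraries of a group. QQWNYPLIT of IGKV4-86 stands at 0.955% and 1.03% in the knockout against 0.200% to 0.342% in the WT libraries, and QQYSGYPLT of IGKV4-57-1 at 4.34% and 0.0160% within the knockout.

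Read counts were compared for 1323 V-J-CDR3 clonotypes with at least 10 reads in at least 2 libraries, 151 of them from members. With edgeR, 1 (0.0756%), 0 (0%) and 1 (0.0756%) clonotypes passed in the 3 comparisons, and 0 of 151 members in each. At an unadjusted p under 0.05, 21, 36 and 14 members passed, beside 280 (21.2%), 371 (28.0%) and 206 (15.6%) of all clonotypes. DESeq2 gave an adjusted p to 1041, 964 and 938 clonotypes and called 177 (17.0%), 185 (19.2%) and 52 (5.54%) of them. Among members it called 12 of 122, 14 of 109 and 3 of 104. The median log2 fold change of the member clonotypes by edgeR was −0.41, −1.28 and −0.23, beside −0.85, −1.54 and −0.57 over all clonotypes tested.

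The clonotypes that DESeq2 called and that were low in both knockout libraries were of several members, and the following were chosen after their values were seen. QQYSGYPLIT of IGKV4-57-1 with IGKJ5 had 712 and 1310 reads in WT B-1a, 5 and 1 in Igll1-/- B-1a, and 286 and 227 in WT B-2 libraries. Its log2 fold change of Igll1-/- over WT B-1a cells was −8.18 ± 1.26 by edgeR (SE, adjusted p = 0.115) and −8.08 by DESeq2 (adjusted p = 3.66e-09). QQYSGYPYT of IGKV4-57-1 with IGKJ2 had 216 and 322, 2 and 2, and 153 and 129 reads (DESeq2 log2 fold change −6.83, adjusted p = 8.94e-07). Both were near absent in Igll1-/- replicate 1 although that library held the most IGKV4-57-1 reads. HQYHRSPPT of IGKV4-74 with IGKJ5 had 175 and 157, 3 and 11, and 329 and 335 reads (DESeq2 −4.38, adjusted p = 0.000471). QQWSSYPWT of IGKV4-55 with IGKJ1 had 57 and 64, 2 and 2, and 167 and 245 reads (DESeq2 −4.66, adjusted p = 0.00284). For each of these 4, both knockout libraries lay below all WT libraries, which follows from how they were chosen, and edgeR did not call them. QQYSGYPLIT, QQYSGYPYT and QQWSSYPWT met the minimum of 10 reads through WT libraries alone. HQYHRSPPT met it in the WT libraries and in 1 knockout library, with 11 reads. The low direction was not particular to members. Of the 177 clonotypes of all genes that DESeq2 called in Igll1-/- over WT B-1a cells, 140 were lower, and so were 10 of the 12 member calls. How many of all clonotypes had both knockout libraries below all WT libraries was not counted.

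Few member clonotypes recurred in every library, but those few held most reads. Of 2444 member V-J-CDR3 combinations, 1659 (67.9%) were found in 1 library and 114 (4.66%) in all 6, beside 69.6% and 3.87% of the 24030 combinations of all Igkv genes. The 114 held 64.3% to 89.9% of the member reads of a library. IGKV4-57 had the highest count of such combinations, 36 of 492, and IGKV4-57-1 had 10 of 339.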

How the data were processed

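Igk rearrangements were amplified from genomic DNA and sequenced, on a MiSeq per the labels and a HiSeq per the study's methods. The authors assigned reads with IMGT/High-V-QUEST, used StatClonotype, and deposited 1 table per library that gives the count of reads of each clonotype and, in percent, the identity to the germline V gene; the versions are not given in the sources used here. Both measures come without molecular identifiers, so read counts mix cell number and amplification. From the 6 Igk tables (5701 to 8652 clonotypes each) the clonotypes of each V gene listed alone were counted, and 5.81% to 6.73% of a library, listed with more than 1 V gene, stayed only in the total. The 4 Igh libraries were not used. All 6 libraries entered 1 fit per measure in R 4.3.3 with edgeR 4.0.16 (quasi-likelihood test, limma 3.58.1, Benjamini-Hochberg adjustment over all features, threshold 0.05), with total clonotypes or total reads as library size. V genes and V-J combinations needed at least 10 clonotypes, and clonotypes (V, J and CDR3, duplicates summed) at least 10 reads, in at least 2 libraries. The SE given for edgeR was derived from its test, as the absolute log2 fold change over the square root of the F statistic. DESeq2 1.42.0, TMM factors, other filters, the replicate block and leave-one-out fits were the alternatives. The fits were tested on simulated data. Other values were computed in Python 3.11.15 (pandas 2.3.3, scipy 1.17.1, matplotlib 3.10.9), with Wilson intervals for shares. The members, lists and tests were chosen with earlier results of these data known. All 10 members were named, and for clonotypes the most read of each member in each library, with others as stated.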

Additional observations from a re-analysis of the deposited data

How the results depend on the processing

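Of the results with a count of members called, 100 recomputed values were within 1.5 times the standard count and 32 were not; of single log2 fold changes, 321 kept direction and side of the threshold, 43 reversed, 14 passed only under the alternative and 6 no longer passed. None of the reversed values had passed a test, and the cause was not tested. For V genes in Igll1-/- over WT B-1a cells the count of 0 members became 1 with no filter, with productive clonotypes only and with the replicate block (IGKV4-50 each time), and ran from 0 to 2 over the leave-one-out fits (2, IGKV4-57 and IGKV4-57-1, without Igll1-/- replicate 1; 1, IGKV4-50, without replicate 2), where all genes called went from 15 to between 7 and 31. Over WT B-2 cells 0 became 1 with TMM and with DESeq2 (IGKV4-86) and ran from 0 to 3 on leaving out a library (1, IGKV4-57, without Igll1-/- replicate 1; 3, IGKV4-50, IGKV4-57-1 and IGKV4-74, without replicate 2); all genes called went from 19 to 8 and 9 with TMM and DESeq2, to 10 with at least 10 reads per clonotype, and from 6 to 39 on leaving out a library. For WT B-1a over WT B-2 the members ran from 0 to 1 and all genes, 3 in the standard fit, from 1 to 12 on leaving out a library, with 8 under no filter and the block, 5 with at least 2 reads and 6 with near-identical clonotypes merged. For V-J combinations the members called in Igll1-/- over WT B-1a cells became 1 with TMM and 1 with at least 10 reads and ran from 0 to 3 on leaving out a library; over WT B-2 cells the count of 1 became 2 with TMM, 0 with at least 10 reads and 0 with the replicate block, and ran from 0 to 5; between the WT groups it ran from 0 to 1. Leaving out 1 library moved all combinations called from 21 to between 1 and 41, from 25 to between 0 and 47, and from 6 to between 0 and 27. By reads they became 11 for the first and 1 for the last comparison, and with at least 10 reads 9, 8 and 2. For clonotype reads DESeq2 called 12, 14 and 3 members against 0, and 177, 185 and 52 of all clonotypes against 1, 0 and 1, and a minimum of 50 reads called 5 in the first comparison, and leaving out a library gave 0 to 1, 0 to 1 and 0. The counts of 0 members in the productive ratio did not change.

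Small fold changes turned sign. In Igll1-/- over WT B-1a cells, TMM and DESeq2 gave 0.10 and 0.11 for IGKV4-57, 0.24 and 0.22 for IGKV4-72, and 0.15 and 0.10 for IGKV4-74; at least 10 reads gave 0.32 for IGKV4-72 and 0.31 for IGKV4-74, and merging gave 0.32 for IGKV4-72. In Igll1-/- B-1a over WT B-2 cells, TMM and DESeq2 gave 0.39 and 0.49 for IGKV4-57 and 0.41 and 0.50 for IGKV4-61, DESeq2 gave 0.035 for IGKV4-72, at least 10 reads gave −0.13 for IGKV4-55 and 0.35 for IGKV4-61, and merging gave 0.17 for IGKV4-61. In WT B-1a over WT B-2 cells, TMM and DESeq2 gave 0.0018 and 0.090 for IGKV4-55 and 0.089 and 0.18 for IGKV4-61; reads per V gene gave −0.011 for IGKV4-50 and −0.20 for IGKV4-57; at least 10 reads gave −0.15 for IGKV4-57, 0.11 for IGKV4-61 and −0.14 for IGKV4-86; merging gave −0.10 for IGKV4-57, 0.091 for IGKV4-61 and −0.036 for IGKV4-86. Over the leave-one-out fits, Igll1-/- over WT B-1a ran from −0.70 to 0.25 for IGKV4-57, −0.16 to 0.27 for IGKV4-61, −0.13 to 0.10 for IGKV4-72 and −0.67 to 0.28 for IGKV4-74. Over WT B-2 it ran from −0.62 to 0.33 for IGKV4-57, −0.67 to 1.18 for IGKV4-57-1 and −0.28 to 0.15 for IGKV4-61. WT B-1a over WT B-2 ran from −0.36 to 0.83 for IGKV4-50, −0.018 to 0.16 for IGKV4-57 and −0.086 to 0.18 for IGKV4-86. A group with 1 library left was assumed to vary like the others. Deviations of same-numbered libraries in V gene share correlated at r = 0.03, −0.19 and 0.01 over 84 genes in the 3 comparisons, so these shares showed no common deviation. The study's legends speak of independent experiments, and these correlations cannot show whether same-numbered libraries came from the same experiment. Besides the counts above, the replicate block moved the V-J calls of all genes from 25 to 13 in Igll1-/- B-1a over WT B-2 and from 6 to 3 between the WT groups, and clonotype calls from 1 to 4 in Igll1-/- over WT B-1a cells. IGKV4-86 with IGKJ5 over WT B-2 gave 1.06 (edgeR adjusted p = 0.0846) with the block and 1.39 (0.0562) by reads. Of the tested members IGKV4-50 rested on the fewest clonotypes, 4 to 50 per library.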
